A study of Mus musculus with 4 samples.

Results

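The 10 genes described here make and load the class I molecules of the major histocompatibility complex (MHC). They were taken by gene symbol from a deposited table of read counts, each symbol matched 1 row, and they are 10 of the 56748 genes in that table. RNA was measured by RNA-seq in HT22, an immortalised line derived from mouse hippocampal neurons. There were 2 libraries of a control HT22 line and 2 of an HT22 line made to overexpress MEIS2, a homeodomain transcription factor, and the comparison asks what raised MEIS2 does to the cells. The vector, its promoter, the treatment of the control line and whether each line is a clone or a pool were not given in the sources used here. Nor do these say whether separate cultures gave the libraries of a line. The p-values therefore rest on the spread among 4 libraries alone, possibly a technical one, and an effect of MEIS2 cannot be told apart from any other difference between the lines.

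Class I molecules show peptides from inside the cell to CD8+ T cells. A heavy chain (H2-K1 or H2-D1) pairs with the light chain beta-2 microglobulin (B2m) in the endoplasmic reticulum. There it receives a peptide cut by the proteasome, carried in by the transporter formed by Tap1 and Tap2 and loaded with the help of tapasin (Tapbp). Psmb8, Psmb9 and Psmb10 encode catalytic subunits of the immunoproteasome, which interferon-gamma induces and which take the place of the constitutive subunits Psmb5, Psmb6 and Psmb7. Nlrc5 is a transactivator that acts on the promoters of class I genes. Neurons at rest are known for low levels of class I molecules.

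The promoters are shown first because the heavy chains, the light chain and the transporter genes are known to be controlled through shared promoter elements. RefSeq promoter windows of 300 bases (build GRCm38.p6) were found for 8 of the 10 genes, and not for Tap2 and Nlrc5. Where a gene has several listed starts, the window of the first was taken. Those of H2-K1 (chr17:34000298-34000597, minus strand), H2-D1 (chr17:35262844-35263143, plus strand), B2m (chr2:122147437-122147736, plus strand) and Tap1 (chr17:34187306-34187605, plus strand) read as follows, 5′ to 3′. Capitals mark GGATTCC (the centre of the kappa-B element known from class I promoters), GAANNGAAA or GAAANNGAA (letters of interferon response elements), TGACG (letters found in X boxes) and CCAAT (Y box letters), each on either strand.
H2-K1: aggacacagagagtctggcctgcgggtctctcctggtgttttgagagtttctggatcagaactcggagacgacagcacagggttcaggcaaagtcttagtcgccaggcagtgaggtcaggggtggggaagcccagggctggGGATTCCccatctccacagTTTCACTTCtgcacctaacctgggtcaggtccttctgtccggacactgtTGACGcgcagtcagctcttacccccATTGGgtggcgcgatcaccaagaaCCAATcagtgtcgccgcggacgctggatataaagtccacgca
H2-D1: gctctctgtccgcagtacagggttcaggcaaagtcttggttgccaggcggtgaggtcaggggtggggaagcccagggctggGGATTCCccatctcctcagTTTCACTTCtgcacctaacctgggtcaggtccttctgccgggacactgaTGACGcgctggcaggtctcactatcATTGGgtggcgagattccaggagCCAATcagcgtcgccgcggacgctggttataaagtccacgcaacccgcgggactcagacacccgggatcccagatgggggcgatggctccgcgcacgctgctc
B2m: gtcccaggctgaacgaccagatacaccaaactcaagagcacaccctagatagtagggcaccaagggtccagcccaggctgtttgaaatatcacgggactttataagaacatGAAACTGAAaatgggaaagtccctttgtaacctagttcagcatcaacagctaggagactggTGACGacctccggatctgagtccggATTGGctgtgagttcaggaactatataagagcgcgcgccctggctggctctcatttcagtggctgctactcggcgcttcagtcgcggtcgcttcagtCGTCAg
Tap1: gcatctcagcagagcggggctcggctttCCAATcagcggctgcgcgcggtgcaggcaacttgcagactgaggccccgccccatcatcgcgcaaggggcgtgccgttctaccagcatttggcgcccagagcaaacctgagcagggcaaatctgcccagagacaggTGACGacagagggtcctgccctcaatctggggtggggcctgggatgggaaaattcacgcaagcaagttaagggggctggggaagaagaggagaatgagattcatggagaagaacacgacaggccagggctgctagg

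The heavy chain windows align over 227 bases with 90.7% identity, and both hold the kappa-B, interferon response, TGACG and CCAAT letters in the same order. GGATTCC was in 2 of the 8 windows and in 3.86% of 27025 RefSeq promoter windows. GAANNGAAA was in the same 2 windows and in 7.56% of all, and GAAANNGAA was in the window of B2m alone among the 8 and in 8.57% of all. TGACG was in 5 of 8 (and in 5681 of the 27025) and CCAAT in 6 of 8 (37.9% of all). TGACAG, the core letters of MEIS binding, was in 0 of 8 windows against 19.3% of all. Matches of different motifs did not overlap in the 8 windows. Tap1 and Psmb9 lie head to head, and their windows share 275 bases. Their TGACG and CCAAT matches are the same sites read from either strand, so each of these counts holds 1 site in both windows. A match describes letters and not a bound site, a missing match says only that the letters are not in the window, and the motifs were chosen with the sequences in view.

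The libraries held 15014017 to 16903967 counts, and the detection floor of 3 counts corresponded to at most 0.2 CPM, a scale that divides each count by its library's sum. Such floors and any counting interval cover counting error only. Meis2 had 245 and 319 counts in the control libraries and 5182 and 5571 in the MEIS2 libraries, the direction the labels give. Of 12 neuronal markers 8 had 0 counts in every library, Rbfox3, Snap25, Nefl and Stmn2 among them. Map2 had 102 to 305 counts and Tubb3 199 to 340. The summed level of the 12 was 23.6 to 29.9 CPM in the control libraries and 25.9 to 30.2 CPM in the MEIS2 libraries. It came mostly from Tubb3 (log2 fold change -0.40, SE 0.39) and Map2 (0.93, SE 0.45). Of 12 immune cell markers 7 had 0 counts throughout, including Ptprc, Itgam and Cd3e. The immune sum was 26.2 to 30.8 CPM against 16.3 to 27.6 CPM and came mostly from Cd14 (log2 fold change -0.39, SE 0.42) and Cd68. The 5 astrocyte and 5 endothelial markers had at most 10 counts each. Of 8 fibroblast markers, 2 (Lum and Thy1) had 0 counts, and the sum was 3144 to 3508 CPM in the control libraries and 3770 to 3846 CPM in the MEIS2 libraries, mostly from Vim (log2 fold change 0.16, SE 0.34). Col3a1 had the lowest p among the fibroblast markers, at 0.95 on the log2 scale (SE 0.31). The 5 fibroblast markers that could be tested all had fitted values above 0, and their part in the results below was not tested. In bulk RNA, fewer cells of a type and less RNA per cell cannot be told apart.

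All 10 genes were expressed in every library, with at least 328 counts each. Levels between genes were compared per length, as TMM-scaled CPM per kilobase of the gene length in the table, a mean over the 4 libraries. B2m was the highest at 1233 CPM per kilobase, the 23rd of 12802 tested genes. H2-D1 followed at 479 and H2-K1 at 192 CPM per kilobase, at percentiles of 99.3 and 97.9 among the tested genes. The loading and processing genes came next, with Psmb10 at 154, Tapbp at 138, Tap1 at 89.6, Psmb8 at 47.7, Tap2 at 27.8 and Psmb9 at 25.8 CPM per kilobase. Nlrc5 was the lowest at 4.42 CPM per kilobase, at percentile 44.3. The neighbours H2-K1 and Psmb10, Psmb10 and Tapbp, Psmb8 and Tap2, and Tap2 and Psmb9 overlapped across libraries. Within a library, Psmb8 lay above Tap2 every time. The order within the other pairs changed from library to library. B2m, H2-D1 and Nlrc5 overlapped with no other of the 10 genes.

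**Figure D1:**
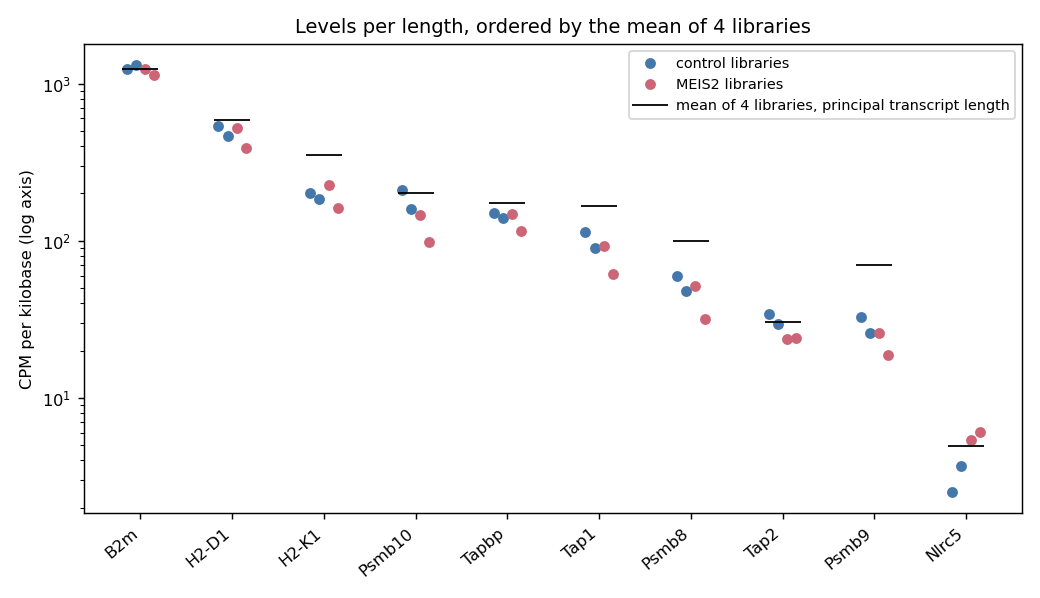
Level of each of the 10 genes per library in TMM-scaled CPM per kilobase of the gene length in the deposited table (log axis), ordered by the mean of the 4 libraries, with short lines at that mean when the length of the principal GENCODE M21 transcript is used. B2m stands at 1233 and Nlrc5 at 4.42 CPM per kilobase, and the lines lie above all 4 points for H2-K1, H2-D1, Tap1, Tapbp, Psmb8 and Psmb9.

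The gene lengths in the table exceed those of the principal transcripts for 9 of the 10 genes, B2m being equal at 860 bases. Psmb9 is listed at 3660 bases against 1352 for its principal GENCODE M21 transcript, and Psmb8 at 3381 against 1628. With the principal lengths, an alternative added after the data were seen, H2-K1 stood at 349, Psmb8 at 99.1 and Psmb9 at 69.8 CPM per kilobase. Psmb9 then lay above Tap2, at 30.5, while B2m, H2-D1 and H2-K1 kept the first places and Nlrc5 the last.

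Between the lines, 0 of the 10 genes passed edgeR's quasi-likelihood test at the adjusted threshold of 0.05, where 0.00781% of the 12802 tested genes passed, which is Meis2 alone. At an unadjusted p under 0.05 there was 1 of the 10, Nlrc5, with a higher level in the MEIS2 line, against 9.79% of all tested genes in that direction, and 0 of 10 in the other, against 0.414%. DESeq2, which called 0.860% of its tested genes, and limma-voom, which called 0.00781%, also called 0 of the 10 after adjustment and had 1 at an unadjusted p under 0.05. The fitted log2 fold change was below 0 for 8 of the 10 genes and above 0 for 2. Its median was -0.25, against 0.01 over all tested genes, of which 50.9% stood above 0. Libraries were also simulated with the common dispersion of this comparison for every gene and no trend with gene length or GC content. Over 12590 genes, 12.5% of 2-fold and 79.0% of 4-fold changes were recovered there. In such libraries changes under 2-fold would mostly go uncalled, and the rates for single genes here may differ.

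**Figure D2:**
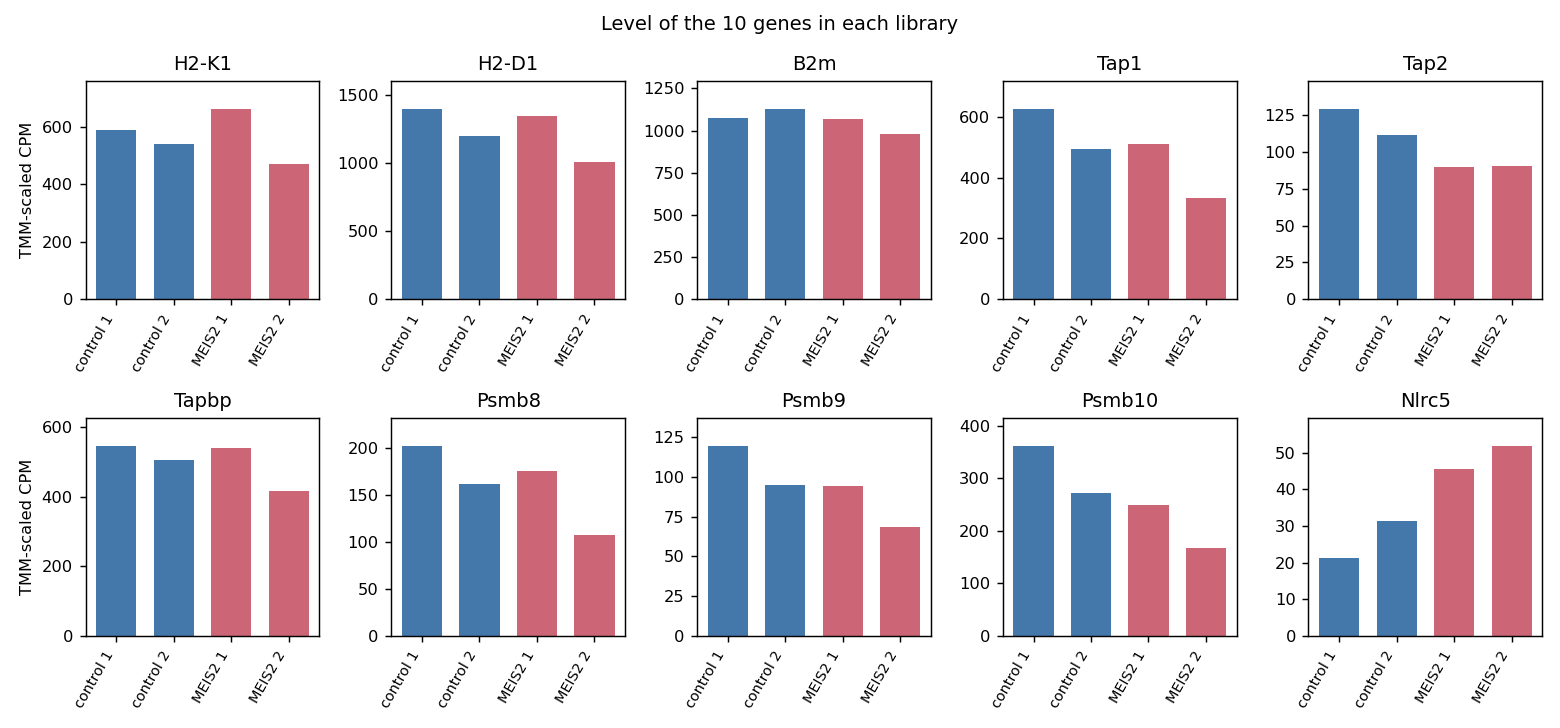
TMM-scaled CPM of each of the 10 genes in the 2 control libraries (blue bars) and the 2 MEIS2 libraries (red bars), with axes from 0. Tap2 is lower in both MEIS2 libraries, at 89.4 and 90.6 CPM, than in both controls, and Nlrc5 is higher, at 45.5 and 51.8 CPM.

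The heavy chains, which carry the peptide groove, differed between the lines by less than their spread. H2-K1 (ENSMUSG00000061232, chromosome 17, minus strand, 34214991 to 34219321 in the positions of the table, build not given in the sources used here) measured 590 and 539 CPM in the control libraries and 661 and 472 CPM in the MEIS2 libraries. The MEIS2 libraries thus bracketed the controls, and the log2 fold change was 0.01 (95% interval -0.68 to 0.69). H2-D1 (ENSMUSG00000073411, chromosome 17, plus strand, 35481706 to 35486475) measured 1393 and 1199 CPM in the control libraries against 1342 and 1010.0 CPM. Its groups overlapped as well, with a log2 fold change of -0.14 (95% interval -0.85 to 0.57, adjusted p 0.869 in edgeR's test). These intervals leave room for changes of either sign.

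Reads of the heavy chains may be split between near-identical genes. The principal transcripts of H2-K1 and H2-D1 align over 1470 bases with 91.2% identity and share a run of 91 identical bases, and H2-Q4 aligns with them at 92.2% and 91.7%. The longest identical run was one of 145 bases between H2-D1 and H2-T23. No source used here says how reads that match several genes were counted. Class I heavy chains also differ between mouse strains, and the strain behind HT22 is not given in the labels, so the part of strain in the split was not tested. Counted as 1 gene, H2-K1 and H2-D1 had a log2 fold change of -0.09 (SE 0.34). All class I heavy chain genes of chromosome 17 on the list together, the annotated pseudogene H2-K2 included, had one of -0.12 (SE 0.34).

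The light chain B2m (ENSMUSG00000060802, chromosome 2, plus strand, 121978167 to 121983564) varied least among libraries, relative to its level, of the 10 genes. It measured 1073 and 1125 CPM in the control libraries and 1066 and 979 CPM in the MEIS2 libraries. Both MEIS2 libraries lay below both controls by a narrow margin, and the log2 fold change was -0.10 (SE 0.32, adjusted p 0.901 in edgeR's test). Per length, H2-K1 and H2-D1 together reached 0.594 and 0.496 of the B2m level in the control line, and 0.601 and 0.485 of it in the MEIS2 line. With the principal lengths these ratios were 0.823, 0.691, 0.844 and 0.678. B2m mRNA thus exceeded that of H2-K1 and H2-D1 together in every library on either length. The other class I heavy chains are not in these ratios, and how reads shared by near-identical heavy chains were counted is not given. H2-D1 per length was 2.69 and 2.54 times H2-K1 in the control libraries and 2.31 and 2.44 times in the MEIS2 libraries.

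The transporter genes had lower fitted levels in the MEIS2 line without passing the test. Tap1 (ENSMUSG00000037321, chromosome 17, plus strand, 34406527 to 34416199), which binds ATP and forms the peptide channel with Tap2, measured 625 and 494 CPM in the control libraries and 510 and 334 CPM in the MEIS2 libraries. MEIS2 replicate 1 lay between the controls, and the log2 fold change was -0.41 (95% interval -1.12 to 0.31, adjusted p 0.637 in edgeR's test). Without MEIS2 replicate 2 it was -0.18, and without MEIS2 replicate 1 it was -0.76. Tap2 (ENSMUSG00000024339, chromosome 17, plus strand, 34422501 to 34435295), the partner of Tap1, measured 129 and 111 CPM in the control libraries against 89.4 and 90.6 CPM. Its groups did not overlap, and its MEIS2 libraries were alike. The log2 fold change was -0.42 (95% interval -1.05 to 0.22, adjusted p 0.609), with -0.53 to -0.32 over the fits that leave out 1 library, and -0.07 once the trends of each library with gene length and GC content were taken out.

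Tapbp (ENSMUSG00000024308, chromosome 17, plus strand, 34134873 to 34148266), the chaperone that holds the heavy chain at the transporter, measured 546 and 506 CPM in the control libraries and 540 and 416 CPM in the MEIS2 libraries. The groups overlapped, and the fitted log2 difference was -0.14 (SE 0.31, adjusted p 0.865 in edgeR's test). Its span in the table overlaps that of Zbtb22 on the same strand over 3422 bases, and Tap1 and Psmb9 overlap on opposite strands over 212 bases. Nlrc5 overlaps 9330175E14Rik on the opposite strand over 748 bases, a gene with 39 to 64 counts in a library. Whether the counting used strand is not given, so reads from those stretches cannot be assigned with certainty.

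The immunoproteasome subunits all had fitted log2 fold changes below 0, and none passed the test. Psmb8 (ENSMUSG00000024338, chromosome 17, plus strand, 34416695 to 34420428), which stands in for Psmb5, measured 202 and 161 CPM in the control libraries and 175 and 108 CPM in the MEIS2 libraries. These groups overlapped, and the log2 fold change of -0.36 (SE 0.33) ranged from -0.77 without MEIS2 replicate 1 to -0.09 without MEIS2 replicate 2. Psmb9 (ENSMUSG00000096727, chromosome 17, minus strand, 34400961 to 34406738), which stands in for Psmb6, measured 119 and 95.1 CPM against 94.4 and 68.7 CPM. Control replicate 2 and MEIS2 replicate 1 were almost level, and the log2 fold change was -0.40 (SE 0.31). It was -0.66 without MEIS2 replicate 1, -0.23 without control replicate 1 or without MEIS2 replicate 2, and -0.18 without the length and GC trend. Psmb10 (ENSMUSG00000031897, chromosome 8, minus strand, 106662367 to 106665076), which stands in for Psmb7, measured 361 and 272 CPM against 248 and 167 CPM.

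Psmb10 had the largest fitted difference below 0 among the 10 genes. Both its MEIS2 libraries lay below both controls, and the log2 fold change was -0.61 (95% interval -1.31 to 0.09, adjusted p 0.559 in edgeR's test), or a level 1.53-fold higher in the controls. It was -0.40 without control replicate 1 or without MEIS2 replicate 2, -0.95 without MEIS2 replicate 1. Taking out the length and GC trend left -0.16. In all, 4 of the 10 genes (B2m, Tap2, Psmb9 and Psmb10) had both MEIS2 libraries below both controls, where 19.1% of all tested genes did, and 1 (Nlrc5) had both above, where 22.6% did.

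Nlrc5 (ENSMUSG00000074151, chromosome 8, plus strand, 95160984 to 95253900) was the exception in direction. It measured 21.4 and 31.4 CPM in the control libraries and 45.5 and 51.8 CPM in the MEIS2 libraries, from 328 and 510 counts against 710 and 869. The groups did not overlap, and the MEIS2 libraries were closer to each other than the controls were. The fitted level was 1.84-fold higher in the MEIS2 line (log2 fold change 0.88, SE 0.35, 95% interval 0.13 to 1.63), and edgeR's test gave an adjusted p of 0.374. It stood at 0.62 without control replicate 1 and at 1.18 without control replicate 2. Without MEIS2 replicate 1 it was 0.97 and passed (adjusted p 0.0359 in edgeR's test), in a fit that called 18.0% of all tested genes. At 8493 bases Nlrc5 is longer than 85.5% of the tested genes, whose log2 fold changes were higher for longer genes (Spearman rho 0.488 across genes, which are not independent replicates). With the length and GC trend removed its log2 fold change was 0.67 (SE 0.25, adjusted p 0.359). Its fitted value stood at 0.58 or above under every alternative tried, while those of the heavy chains it is known to act on stayed between -0.38 and 0.28.

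**Figure D3:**
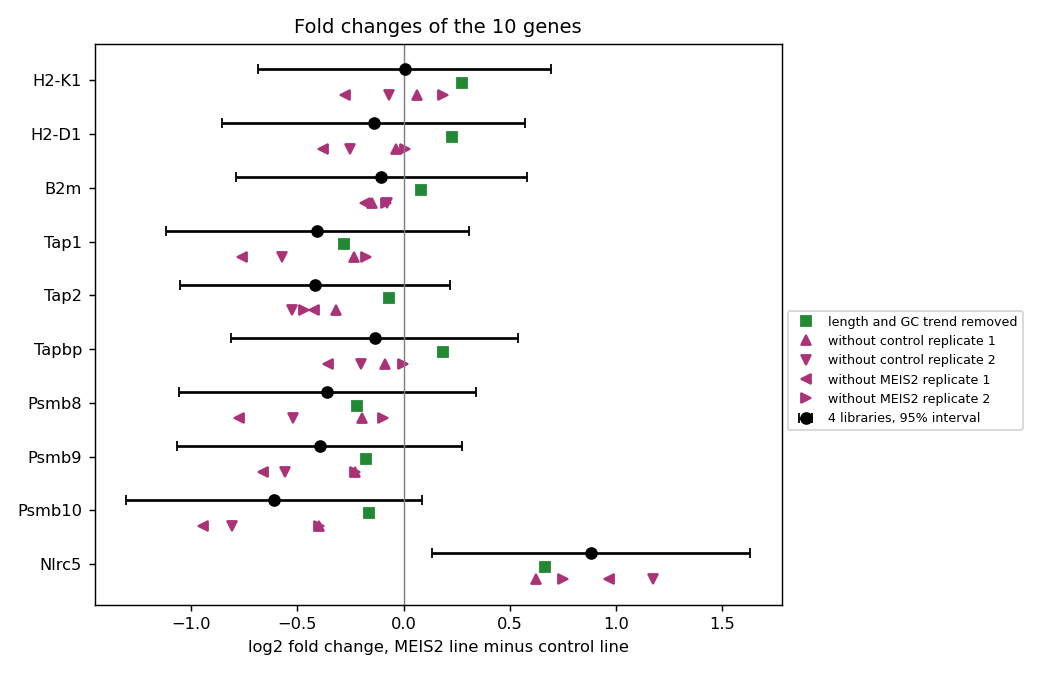
Log2 fold change of each of the 10 genes, MEIS2 line minus control line, with its 95% interval from edgeR's fit to the 4 libraries (black), the value with each library's length and GC trend removed (green squares) and the values without 1 library (purple triangles). The interval of Nlrc5, 0.13 to 1.63, lies above 0 before adjustment for the number of genes, and the other 9 intervals include 0.

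The libraries of a line differed in the same sense as the lines. As deviations from the gene mean on the log2 scale, the median of the 10 genes was 0.25 in control replicate 1, 0.04 in control replicate 2, 0.10 in MEIS2 replicate 1 and -0.27 in MEIS2 replicate 2. Control replicate 2 and MEIS2 replicate 1 thus lay next to each other, and the outer libraries came from different lines. The biological coefficient of variation over all genes was 27.9%. Without the length and GC trend, the 10 genes had a median log2 fold change of 0.01, against 0.03 for all tested genes. H2-K1 then stood at 0.28, H2-D1 at 0.23, Tapbp at 0.19, B2m at 0.08, and Tap1 at -0.28. Meis2 itself went from 4.22 to 3.73. With the length trend alone removed, an unplanned alternative, the medians were -0.12 for the 10 genes and 0.04 for all tested genes.

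The constitutive proteasome subunits, which the immunoproteasome subunits replace, also had fitted log2 fold changes below 0, in 3 of 3 genes. Psmb5 measured 157 ± 36.8 CPM in the control libraries and 95.5 ± 33.1 CPM in the MEIS2 libraries (n = 2 each, ± SD). The log2 fold change was -0.72 (SE 0.34), at an adjusted p of 0.489 by edgeR. Psmb6 had a log2 fold change of -0.57 (SE 0.35) and Psmb7 one of -0.44 (SE 0.32), and 0 of the 3 passed. Without MEIS2 replicate 2 the 3 values were -0.45, -0.25 and -0.20, and without another library they reached -1.14, -1.08 and -0.80. Of the 61 tested genes in the 7 related lists, 48 moved by over 1.5 times, up or down, without MEIS2 replicate 2. That ratio also counts small shifts of values near 0. The share among all tested genes, and the counts without another library, were not taken. Per length, Psmb8 was 0.293 and 0.327 of Psmb5 in the control libraries and 0.392 and 0.397 in the MEIS2 libraries. This ratio did not overlap between the lines, although 2 libraries against 2 cannot give an exact two-sided permutation p under 0.333. With the trend removed, the log2 fold changes of Psmb8 and Psmb5 were -0.22 and -0.23. Psmb9 per length was 0.114 and 0.122 of Psmb6 in the control libraries and 0.119 and 0.156 in the MEIS2 libraries, which overlapped.

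Psmb10 exceeded its constitutive counterpart in every library. It stood at 3.56 and 2.93 times Psmb7 per length in the control line and at 2.86 and 2.96 times in the MEIS2 line, and at 1.26 to 1.57 times with the principal lengths. Psmb8 and Psmb9 stayed below theirs on either length, Psmb8 at 0.609 to 0.824 of Psmb5 and Psmb9 at 0.131 to 0.180 of Psmb6 with the principal lengths. Reads of all 3 immunoproteasome genes and all 3 constitutive genes were present in each of the 4 libraries.

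**Figure D4:**
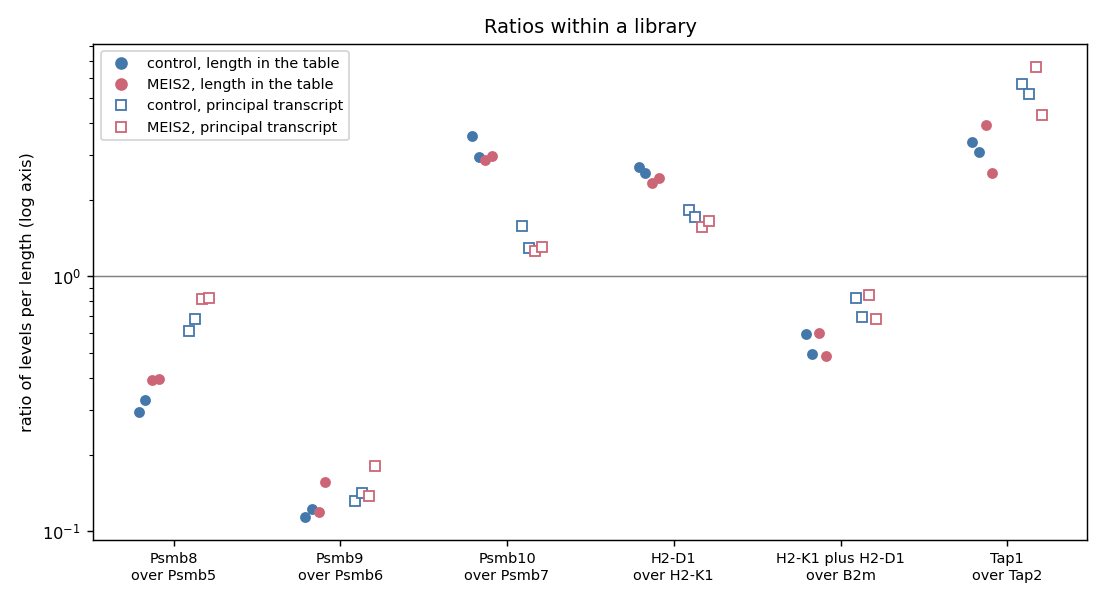
Ratios of levels per length within each library (log axis), with gene lengths from the table (filled circles) or of the principal transcripts (open squares), for control (blue) and MEIS2 (red) libraries. Psmb10 over Psmb7 lies between 2.86 and 3.56 with the lengths of the table, above the line at equality, and Psmb9 over Psmb6 lies between 0.114 and 0.156.

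Other class I heavy chains were also expressed. The list held 22 genes, of which 9 had enough counts to be tested. Of these, 3 had a fitted value above 0 and 6 below, and 0 passed, at a median log2 fold change of -0.23. H2-K2, which is annotated as a transcribed pseudogene, is among those below 0 (log2 fold change -0.27, SE 0.42). H2-T22, the highest of them per length, measured 218 ± 12.2 and 184 ± 46.9 CPM (control and MEIS2 line, SD, n = 2 each). H2-T23, the mouse Qa-1 heavy chain, which presents leader peptides of other class I chains, had a log2 fold change of -0.31 (SE 0.30), and H2-T24 had one of 0.43 (SE 0.39). H2-K1 and H2-D1 made up 77.0% to 79.9% of the summed level per length of the listed class I heavy chain genes of chromosome 17 in the 4 libraries. With the principal lengths, which leave out H2-K2, the share was 73.11% to 76.65%. How reads shared by near-identical genes were counted is not given, and the share depends on it.

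Of 10 class II genes 6 had no reads. H2-Aa, H2-Ab1, H2-Eb1, H2-Eb2, H2-Oa and H2-Ob had 0 counts in all libraries, which allows a level of up to 0.2 CPM in a library. Ciita, the class II transactivator, had at most 3 counts in a library. The peptide exchange factors H2-DMa, with a log2 fold change of -0.75 (SE 0.48), and H2-DMb1, with one of -0.23 (SE 0.39), were among the 4 class II genes that could be tested, and 0 of the 4 passed.

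Loading factors and trimming enzymes outside the 10 genes were tested at 12 of 12, with 7 fitted values above 0, 5 below and 0 past the threshold, at a median of 0.32. Calr, a chaperone of the loading complex and the highest of them per length, measured 4221 ± 89.9 and 3336 ± 408 CPM (log2 fold change -0.34, SE 0.35). Canx and Pdia3, which fold the heavy chain, had log2 fold changes of 0.49 (SE 0.33) and 0.38 (SE 0.33). These were 0.13 and 0.05 without MEIS2 replicate 2, and up to 0.74 and 0.60 without another library. Erap1, the peptidase that trims peptides in the endoplasmic reticulum, stood at 0.50 (SE 0.38). It was 0.055 without MEIS2 replicate 2 and up to 0.85 without another library. Thop1, which degrades peptides in the cytosol, stood at -0.52 (SE 0.36). Its value was -0.18 without MEIS2 replicate 2 and reached -1.06 without another library. Lnpep had the lowest p of the list, at 1.65 on the log2 scale (SE 0.52, adjusted p 0.279 in edgeR's test). That value was 0.16 without MEIS2 replicate 2, where Lnpep measured 112 CPM against 19.0 to 24.9 CPM in the other libraries. Without another library it reached 2.35.

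Among 5 genes of proteasome activators and maturation, 2 had fitted values above 0 and 3 below, at a median of -0.44, and 0 passed. Psme1 and Psme2, the subunits of the interferon-induced activator PA28, had log2 fold changes of -0.44 (SE 0.34) and -0.45 (SE 0.31). These were -0.16 and -0.27 without MEIS2 replicate 2, and reached -0.89 and -0.73 without another library. With the length and GC trend removed they were -0.06 and -0.16. Pomp, which helps to assemble the proteasome, stood at -0.55 (SE 0.30), and Psme4 at 0.65 (SE 0.38). Psme4 was at -0.02 without MEIS2 replicate 2 and up to 1.08 without another library.

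Of 20 regulators of class I transcription 19 were tested, with 12 fitted values above 0 and 7 below at a median of 0.36, and 0 passed. Irf1, an interferon-induced activator of class I and immunoproteasome genes, measured 155 ± 11.5 and 136 ± 25.5 CPM (log2 fold change -0.19, SE 0.30). Rela, a subunit of NF-kappaB and the highest of them per length of the table, had a log2 fold change of -0.30 (SE 0.31), Irf2 0.39 (SE 0.37) and Irf3 -0.55 (SE 0.34). Without MEIS2 replicate 2 these were -0.12, 0.056 and -0.27, and without another library they reached -0.58, 0.62 and -0.99. Rfx5, a subunit of the complex that binds X boxes, stood at 0.54 (SE 0.42). Its value was 0.19 without MEIS2 replicate 2 and up to 0.89 without another library. Suz12, a subunit of Polycomb complex 2, had the lowest p of the list at 1.33 (SE 0.48, adjusted p 0.329 in edgeR's test). It was 0.04 without MEIS2 replicate 2 and up to 1.97 without another library.

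Interferon receptors, their kinases and feedback inhibitors were tested at 9 of 9, with 5 fitted values above 0 and 4 below, a median of 0.05 and 0 past the threshold. Ifngr2, a chain of the interferon-gamma receptor, stood at -0.13 (SE 0.32). Jak2, a kinase of that receptor, stood at 0.82 (SE 0.45), or 0.02 without MEIS2 replicate 2 and up to 1.31 without another library. Socs1, which inhibits it, stood at -0.69 (SE 0.37).

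**Figure D5:**
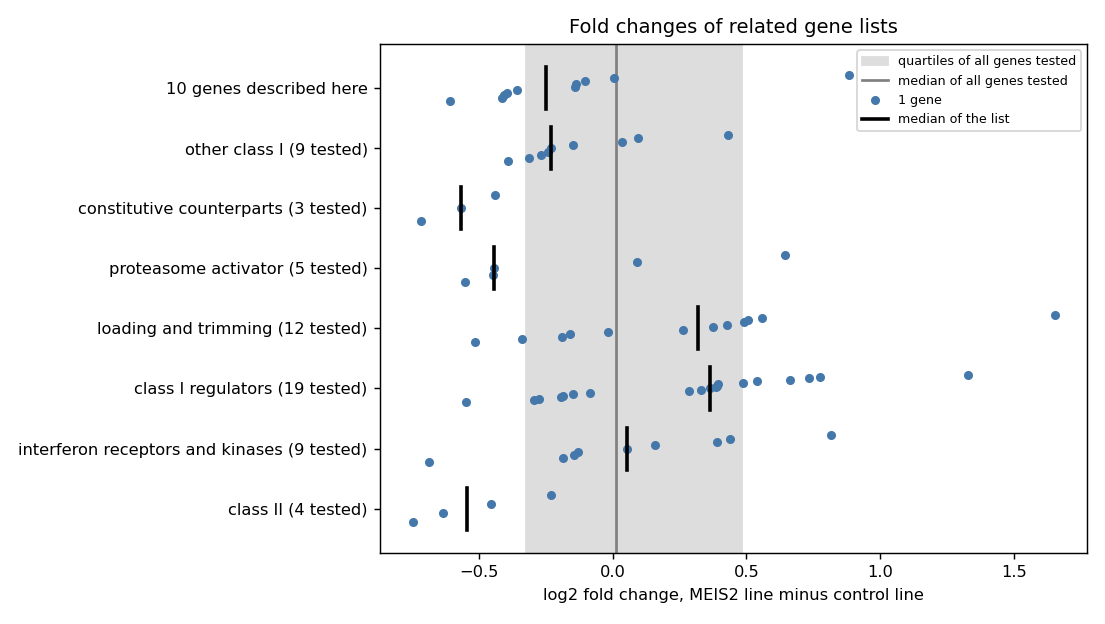
Log2 fold change, MEIS2 line minus control line, of each tested gene (points) in the 10 genes described here and in 7 related lists, with the median of each list (black bars) and the median and quartiles of all tested genes (grey line and band, quartiles -0.32 and 0.48). The medians of the 10 genes (-0.25) and of the other class I heavy chains (-0.23) lie inside the band, and those of the constitutive proteasome subunits (-0.57), class II genes (-0.54) and proteasome activators (-0.44) lie below it. With the length and GC trend removed, not drawn here, these last medians were -0.38, -0.18 and -0.06. Those of the 10 genes and of the other class I heavy chains were then 0.01 and -0.01. The loading, regulator and interferon lists went from 0.32, 0.36 and 0.05 to 0.18, 0.10 and 0.0048.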

How the data were processed

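The authors deposited whole-number read counts per gene in 1 table, with 1 column per library; the other columns, per the file headers, hold an Ensembl ID, a symbol, a position and a gene length in bases. Per the labels' protocols, RNA was taken up in TRIzol, selected for poly(A) tails, fragmented and made into libraries after a New England Biolabs protocol. DESeq2 is named, without a role, per the submitters' processing notes. The aligner, counter, strand setting, annotation and genome build were not given in the sources used here. After poly(A) selection, broken RNA lowers the coverage of long transcripts.

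The deposited counts were tested with edgeR 4.0.16 in R 4.3.3 (filterByExpr with the group, TMM, quasi-likelihood F test of the group term), with Benjamini-Hochberg adjustment over 12802 genes and a threshold of 0.05. The SE is the size of the log2 fold change divided by the square root of F. The 95% intervals use the total degrees of freedom of edgeR's test. These are the residual ones of the fit plus prior ones estimated over all genes. CPM is scaled by TMM. For deviations, log2 CPM had a prior count of 2. Libraries of a line differed beyond sampling noise (chi-square divided by its degrees of freedom 36.3 and 95.2) and were kept apart. Trend removal fitted each library's deviations on splines with 4 degrees of freedom of log2 length and of GC content, the GC content taken from the longest GENCODE M21 transcript of the gene ID, and passed the fit to edgeR as an offset. Principal lengths are those of the longest transcript with an APPRIS principal tag.

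The members, the 7 related lists and the 5 marker lists were chosen with earlier results of these data known. Named genes were the 10 members, Meis2, the counterparts and a set of loading factors and regulators, and of each list the highest per length and the lowest p in each direction. Of the entries of the list of other class I genes, 22 of 26 were in the table. No correlation across the 4 libraries was computed. Alternatives were other scalings and filters, DESeq2 1.42.0, limma-voom (limma 3.58.1), a replicate block, leaving out each library, trend removal and summed heavy chains. The result of 1 regulator and of 1 motif is not reported here.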

Additional observations from a re-analysis of the deposited data

How the results depend on the processing

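Across 144 refits of single members under the alternatives, 122 kept their direction and their side of the threshold, 19 changed sign and 3 passed the threshold. The changes of sign were those of 4 genes with values near 0. H2-K1 (0.0053 as reported) stood at -0.050 with DESeq2 size factors, -0.020 with upper quartile scaling, -0.036 without a filter, -0.055 in DESeq2, -0.013 in limma-voom and with the replicate block, -0.094 and -0.12 when summed with H2-D1 or with all heavy chains, and between -0.27 and 0.18 without 1 library. H2-D1 stood at 0.0084 with library size alone, 0.23 with the length and GC trend removed, 0.064 with the length trend alone removed, and between -0.38 and 0.0066 without 1 library. In these 3 settings B2m stood at 0.047, 0.081 and 0.23, and in the first and second Tapbp stood at 0.010 and 0.19. Library size alone shifted the median over all genes from 0.01 to 0.17. The members' median was 0.0069 with the length and GC trend removed and between -0.40 and -0.09 without 1 library.

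Counts of called genes were 268 higher and 3 lower without a filter on low counts, 73 and 1 in DESeq2, and from 1 to 1902 higher and 0 to 509 lower without 1 library, with 0 to 1 of the members called. The cause was not tested. Without MEIS2 replicate 1, where 18.0% of the tested genes were called, the called member was Nlrc5 (0.97, adjusted p 0.0359 in edgeR's test). That fit has 1 residual degree of freedom, and the lone MEIS2 library is assumed to vary like the controls. The fit with the replicate block also has 1 residual degree of freedom. With the replicate block, 1883 genes were higher and 912 lower, 21.8% of those tested, and 2 members passed, Nlrc5 (0.90, adjusted p 0.000914) and Psmb10 (-0.62, adjusted p 0.0139). The labels share replicate numbers but say nothing of pairing, and with 2 pairs the correlation of deviations of 0.529 between same-numbered libraries does not settle it. Over all alternatives the adjusted p ranged from 0.000914 to 1.00 for Nlrc5 and from 0.0139 to 1.00 for Psmb10. Of the 61 tested genes in the 7 related lists, 0 passed as reported, 8 passed without MEIS2 replicate 1 and 14 with the replicate block: 2 constitutive subunits (Psmb5 and Psmb6), 3 loading or trimming genes, 2 activator genes, 5 regulators and 2 interferon pathway genes.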
